A study of Mus musculus with 20 samples.

Results

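The glandular kallikreins are secreted serine proteases of the chymotrypsin fold, and in the mouse their genes form a tandem array of close paralogs on chromosome 7. Members were taken as the probe sets of the array whose annotation named one of 10 genes of the Klk1 cluster and no other gene. Of these 10 genes, 8 had such a probe set (Klk1, Klk1b1, Klk1b5, Klk1b11, Klk1b16, Klk1b21, Klk1b24 and Klk1b27), out of 18194 genes measured in all. Klk1b22 and Klk1b26 were represented under these symbols only by probe sets annotated to a second symbol as well and were left out of the comparisons, and their shared probe sets are described separately. A gene with several such probe sets was represented by the brightest one on average.

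Gene expression was measured in salivary glands of C57BL/6J mice, freed of lymph nodes, taken at ages of 4, 8, 12 and 16 weeks, from 5 mice per age hybridized singly to a total of 20 arrays. The mice are the healthy comparison strain of a study of autoimmune sialadenitis, and the labels give no treatment and no added allele at any age. Values are log2 signals on an Affymetrix oligonucleotide array. They rank 1 gene across arrays and do not compare different genes, because probes differ in brightness. All 20 mice are labelled male, but Xist, the transcript of the inactive X chromosome, had log2 signals of 8.96 to 10.7 on every array, while the Y-linked genes Eif2s3y, Kdm5d and Uty lay at 2.07 to 2.97, 3.65 to 4.75 and 4.58 to 5.76, against array medians of 4.70 to 4.91. The labelled sex and these markers were thus in conflict in all age groups alike.

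Klk1 encodes tissue kallikrein, which releases kinins from kininogen and is made in salivary ducts, pancreas and kidney. Its mouse paralogs are made chiefly in the granular convoluted tubules of the submandibular gland, a duct segment that matures at puberty under the control of androgens and thyroid hormone and that is larger in males than in females. Several paralogs process other products of the same tubules, among them nerve growth factor, epidermal growth factor and prorenin. Klk1b16 is gamma-renin, Klk1b22 is an epidermal growth factor-binding protein, and Klk1b26 is a prorenin-converting enzyme.

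In the reference annotation the cluster holds 24 genes, 14 of them protein coding and 10 pseudogenes. It runs from Klk1b7-ps at one end to Klk1 at the other, and all members with a probe set are among the coding genes. The 250 bases before the annotated starts of the 8 members were alike where they aligned, with pairwise identities of 76.6% to 97.7% (median 84.2%, 28 pairs). These are shares of the aligned bases, 157 to 249 in a pair, and gaps and unaligned ends were not counted. The closest pair was Klk1b21 and Klk1b24, with 210 of 215 aligned bases identical. The stretch from a CATCTG to a TTTAAA directly before the annotated start is shown for the 6 members in which both lie within these 250 bases, because these stretches differ at few bases. Klk1 and Klk1b21 had no TTTAAA in these 250 bases. The nearest CATCTG began at -45 from the annotated start in Klk1b21 and at -80 in Klk1b24, and bases after the start were not searched. The absence in Klk1b21 thus depends on where its start is annotated, and it was not set against the levels with age. The capitals mark TTTAAA, a variant of the TATA box.
Klk1b1, chr7:43966669-43966723, plus strand: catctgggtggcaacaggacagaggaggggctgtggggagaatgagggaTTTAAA
Klk1b5, chr7:44216381-44216437, plus strand: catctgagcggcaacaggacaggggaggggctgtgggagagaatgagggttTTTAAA
Klk1b11, chr7:43995787-43995842, plus strand: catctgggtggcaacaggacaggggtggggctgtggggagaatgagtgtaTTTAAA
Klk1b16, chr7:44137201-44137256, plus strand: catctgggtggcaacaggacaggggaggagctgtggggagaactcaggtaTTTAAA
Klk1b24, chr7:44188156-44188210, plus strand: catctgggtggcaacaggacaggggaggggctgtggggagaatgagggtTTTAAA
Klk1b27, chr7:44052223-44052278, plus strand: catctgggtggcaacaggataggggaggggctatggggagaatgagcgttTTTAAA
These sequences are from RefSeq on GRCm38.p6. TTTAAA was present anywhere in the 250 bases in 6 of 8 members and in 12.1% of 32851 windows. In these 6 members it began between 17 and 42 bases before the annotated start. As the members are close paralogs with alike upstream bases, they are not separate occurrences of a motif. No member had TATAAA (12.4% of windows), and TGTTCT, the half-site of the androgen and glucocorticoid receptors, was found on either strand in 1 member, Klk1b24 (16.1% of windows). CATCTG, from which the stretches are shown, was chosen after the sequences were seen, and it was present in 8 of 8 members and 14.4% of windows on either strand. Matches of letters are not measurements of binding.

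Arrays differed in ways that bear on the members. The SD of gene values within an array, a measure of the spread of signal, was between 1.38 and 1.90, with the narrowest arrays being those of mouse 5 at 8 weeks (1.38) and mouse 4 at 16 weeks (1.39). The 3' minus 5' log2 signal of control probe sets, a measure of RNA quality, also varied. Its means at 4, 8, 12 and 16 weeks were 2.37, 2.43, 2.69 and 2.40 for Gapdh and 2.51, 2.90, 3.51 and 3.04 for Actb. The means of Actb had the age order of most members, with SDs within an age of 0.54 to 1.26. The part of RNA quality in the members' differences was not tested. Markers of parotid tissue varied between arrays, and the log2 signal of Amy1, salivary amylase, was between 3.81 and 12.4. At 4 weeks it was above 8 in mice 1, 4 and 5, and at later ages in mouse 2 at 8 weeks (9.85), mouse 2 at 12 weeks (11.4) and mice 1 and 5 at 16 weeks (9.37 and 12.4). Parotid markers did not always go together. Mouse 3 at 4 weeks had 5.88 for Amy1 but 12.8 for Bpifa2 and 12.4 for Dnase1. Mouse 3 at 12 weeks had 5.36, 12.9 and 5.89 for these genes. The 5 measured parotid markers of 6 had a summed log2 signal of 13.4 to 15.1 at 4 weeks, 13.7 to 14.7 at 8 weeks, 13.8 to 14.7 at 12 weeks and 12.5 to 15.0 at 16 weeks, a sum made up largely of Car6, whose log2 fold changes at 8, 12 and 16 against 4 weeks were 0.21, 0.17 and -0.12. The median log2 fold change of the 5 was -3.21, -2.56 and -1.72 in these comparisons, opposite in sign to that of the members, and 0 of 5 passed the test. At 8 against 4 weeks the values were -3.21 for Amy1, -3.36 for Bpifa2 and -3.39 for Dnase1 (adjusted p = 0.193, 0.134 and 0.0811 from limma). The 8 measured of 9 genes listed as markers of submandibular acini had a summed log2 signal of 13.4 to 15.6 and medians of -0.88, -0.43 and -1.45 in the same comparisons. At 4 weeks Dcpp3 of this list was between 6.04 and 14.1. It was lowest in mouse 2 and highest in mouse 5, as was Bpifa2, so the list may not follow submandibular acini alone. Of the 8 genes, Lpo was lower at 8 against 4 weeks (-1.61, adjusted p = 0.0449 from limma), and Lpo and Smgc were lower at 16 against 4 weeks (-2.10 and -1.74, adjusted p = 0.0234 and 0.00230). Of 6 fibroblast markers 3, 1 and 3 were lower. Lower calls over all genes were 4.13%, 0.0275% and 3.12%. The 11 of 11 duct markers summed to 9.79 to 11.4, with medians of 0.04, 0.22 and 0.15 and 0 calls. The part of acinar and fibroblast content in the members' differences was not tested. In whole glands, fewer cells of a type and less RNA per cell cannot be told apart.

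All 8 members had their highest mean at 12 weeks of age. The order of means was 4, 8, 16 and 12 weeks from low to high in 6 members, 4, 16, 8 and 12 weeks in Klk1b24, and 16, 4, 8 and 12 weeks in Klk1. The neighbours in the upper part of this order did not pass the test in any member, neither 12 against 8 weeks nor 16 against 12 weeks, and 16 against 8 weeks was not compared. The clearest differences were those of 12 against 4 weeks, where Klk1b16 and Klk1b5 were 15.7-fold and 10.7-fold higher at the later age.

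**Figure D1:**
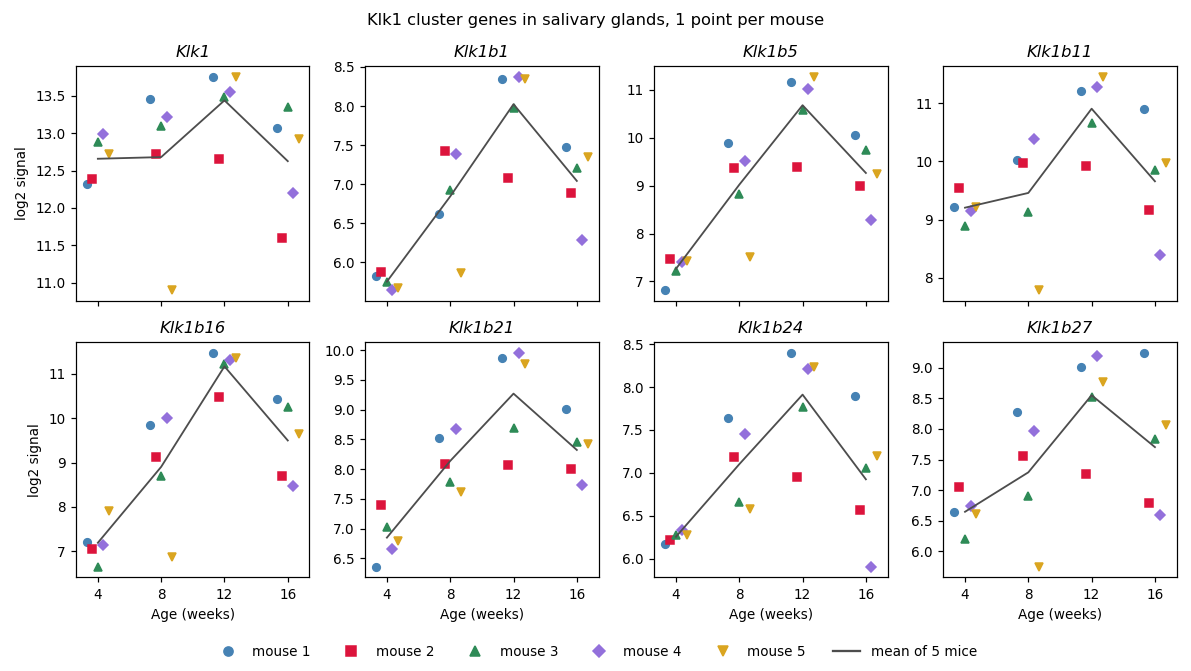
Log2 signal (vertical axis, own scale in each panel) of the 8 Klk1 cluster genes by age in weeks, where each point is a mouse, each marker a mouse number within an age, and there is a line through the means of 5 mice. All 8 means were highest at 12 weeks, and mouse 5 at 8 weeks and mouse 2 at 12 weeks were the lowest of their age in every panel.

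Klk1b16, gamma-renin, had the largest log2 fold change of the members at 12 against 4 weeks. In mice 1 to 5, its log2 signals were 7.22, 7.06, 6.66, 7.14 and 7.90 at 4 weeks and 9.84, 9.12, 8.69, 9.99 and 6.87 at 8 weeks. They were 11.5, 10.5, 11.2, 11.3 and 11.3 at 12 weeks and 10.4, 8.70, 10.3, 8.46 and 9.65 at 16 weeks. Every 12-week mouse was above every mouse of the other ages, and mouse 5 alone among 8-week mice lay within the 4-week range. The log2 fold change was 3.97 at 12 against 4 weeks (SE 0.47, adjusted p = 0.000339 from limma), 1.71 at 8 against 4 weeks (SE 0.47, adjusted p = 0.0381) and 2.30 at 16 against 4 weeks (SE 0.47, adjusted p = 0.0152).

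Klk1b5, the coding paralog nearest to Klk1, had log2 signals of 6.81, 7.47, 7.21, 7.40 and 7.42 at 4 weeks and 9.89, 9.36, 8.82, 9.50 and 7.51 at 8 weeks. At 12 weeks these were 11.2, 9.38, 10.6, 11.0 and 11.3, and at 16 weeks 10.1, 9.00, 9.74, 8.28 and 9.23. All mice of the later ages were above all mice of 4 weeks, although mouse 5 at 8 weeks exceeded the highest of these by little. Klk1b5 was higher by 3.41 at 12 against 4 weeks on the log2 scale (SE 0.40, adjusted p = 0.000339 from limma), by 1.76 at 8 against 4 weeks (adjusted p = 0.0262) and by 2.00 at 16 against 4 weeks (adjusted p = 0.0150). Its second probe set gave 3.58, 1.72 and 2.03 for the same comparisons and passed the test over all 45101 probe sets in each.

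Klk1b1 had the narrowest range but one at 4 weeks, with log2 signals of 5.83, 5.88, 5.75, 5.64 and 5.67, and then 6.61, 7.43, 6.92, 7.39 and 5.87 at 8 weeks. Its values were 8.34, 7.08, 7.98, 8.38 and 8.34 at 12 weeks and 7.48, 6.89, 7.21, 6.29 and 7.34 at 16 weeks. Both the 12-week and the 16-week mice were clear of the 4-week range, and at 8 weeks only mouse 5 fell within it. Klk1b1 was 4.82-fold higher at 12 against 4 weeks (log2 fold change 2.27, SE 0.28, adjusted p = 0.000588 from limma). The log2 fold changes at 8 against 4 and 16 against 4 weeks were 1.09 and 1.29 (SE 0.28, adjusted p = 0.0336 and 0.0207).

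Klk1b21, one of the paralogs also known from Leydig cells of the testis, had log2 signals of 6.36, 7.40, 7.03, 6.66 and 6.79 at 4 weeks, 8.52, 8.08, 7.78, 8.68 and 7.62 at 8 weeks, 9.86, 8.07, 8.69, 9.95 and 9.77 at 12 weeks, and 9.00, 8.00, 8.45, 7.73 and 8.43 at 16 weeks. No mouse of the later ages overlapped the 4-week mice. The 12-week values fell apart, with mice 2 and 3 near the level of 8-week mice. Klk1b21 was 5.36-fold higher at 12 against 4 weeks (log2 fold change 2.42, SE 0.33, adjusted p = 0.00164 from limma), and it also rose at 8 against 4 weeks (1.29, adjusted p = 0.0319) and at 16 against 4 weeks (1.47, adjusted p = 0.0224).

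Klk1b24, of the same upstream type as Klk1b21 and likewise known from Leydig cells, had the narrowest 4-week range, with log2 signals of 6.17, 6.22, 6.28, 6.33 and 6.28. The later values were 7.64, 7.18, 6.66, 7.45 and 6.58 at 8 weeks, 8.40, 6.95, 7.77, 8.21 and 8.23 at 12 weeks, and 7.89, 6.57, 7.06, 5.91 and 7.20 at 16 weeks. Mouse 4 at 16 weeks was below all 4-week mice, and the 8-week and 12-week mice were above them. At 12 against 4 weeks it rose by 1.66 (SE 0.31, adjusted p = 0.0403 from limma), whereas its log2 fold changes of 0.85 at 8 weeks and 0.67 at 16 weeks against 4 weeks did not pass (adjusted p = 0.0771 and 0.186). Its call at 12 against 4 weeks was the least stable, and it was retained in 8 of 20 fits that left out 1 mouse. It was lost without any 1 of the 4-week mice, without mouse 1, 3, 4 or 5 at 12 weeks, without mouse 2 at 8 weeks and without mouse 3 or 5 at 16 weeks (adjusted p up to 0.146 from limma).

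Klk1b27, the third paralog of this kind, had log2 signals of 6.64, 7.05, 6.20, 6.74 and 6.61 at 4 weeks and 8.28, 7.56, 6.90, 7.96 and 5.75 at 8 weeks. It had 9.02, 7.26, 8.53, 9.19 and 8.77 at 12 weeks, all above the 4-week mice, and 9.24, 6.79, 7.83, 6.59 and 8.07 at 16 weeks, which spanned more than any other age. The log2 fold change at 12 against 4 weeks was 1.90 (SE 0.48) and did not pass the test over all genes (adjusted p = 0.192 from limma).

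Klk1b11 had log2 signals of 9.22, 9.55, 8.89, 9.15 and 9.22 at 4 weeks, 10.02, 9.98, 9.12, 10.4 and 7.78 at 8 weeks, 11.2, 9.91, 10.7, 11.3 and 11.5 at 12 weeks, and 10.9, 9.16, 9.86, 8.38 and 9.98 at 16 weeks. The 12-week mice were above all 4-week mice, and at 8 and 16 weeks the ranges lay on both sides of the 4-week range. Its log2 fold change was 1.70 at 12 against 4 weeks (SE 0.44, adjusted p = 0.226 from limma) and 0.25 at 8 against 4 weeks (SE 0.44, adjusted p = 0.703).

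Klk1, tissue kallikrein itself, was among the highest signals of the arrays and had the smallest log2 fold changes of the members in the deposited values, though not at 8 or 16 against 4 weeks after cyclic loess. Its log2 signals were 12.3, 12.4, 12.9, 13.0 and 12.7 at 4 weeks, 13.5, 12.7, 13.1, 13.2 and 10.9 at 8 weeks, 13.8, 12.6, 13.5, 13.5 and 13.8 at 12 weeks, and 13.1, 11.6, 13.3, 12.2 and 12.9 at 16 weeks. The ages overlapped throughout. The log2 fold change was 0.78 at 12 against 4 weeks (SE 0.39, adjusted p = 0.564 from limma), 0.02 at 8 against 4 weeks and -0.03 at 16 against 4 weeks (adjusted p = 0.973 and 0.970). The highest value of an array was between 13.5 and 14.4, so that Klk1 lay near the top of the scale, where an array can compress differences. The extent of such compression was not tested.

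**Figure D2:**
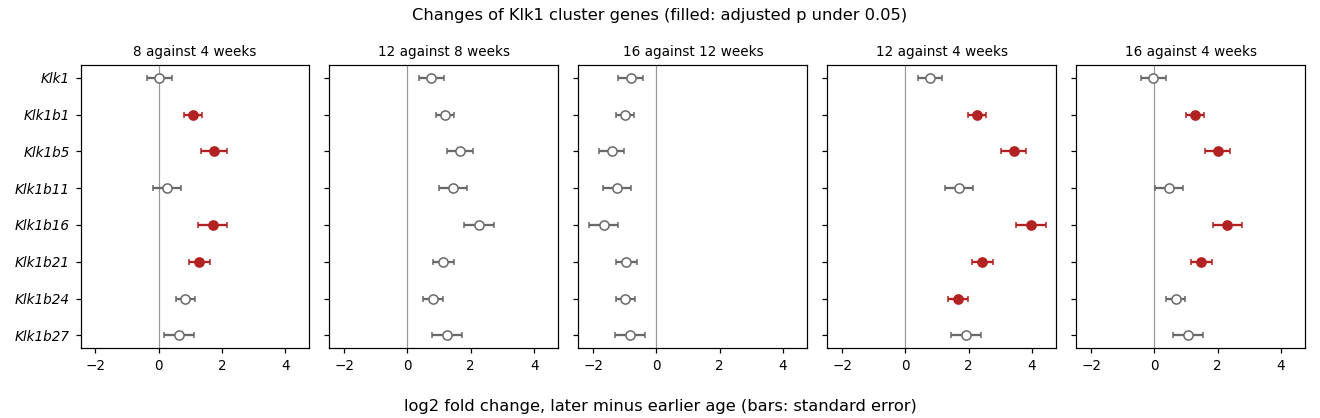
Log2 fold change (horizontal axis, later minus earlier age) of the 8 Klk1 cluster genes (rows) in 5 comparisons of ages, with bars of 1 standard error and filled points for an adjusted p under 0.05 from limma. In the comparison of 12 against 4 weeks 5 genes passed, from Klk1b24 at 1.66 to Klk1b16 at 3.97, and no gene passed at 12 against 8 or 16 against 12 weeks.

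At 8 against 4 weeks 4 of 8 members passed as higher and 0 as lower by limma (Klk1b1, Klk1b5, Klk1b16 and Klk1b21), against 3.26% higher and 4.13% lower of all genes (adjusted p under 0.05). The members had a median log2 fold change of 0.97, against 0.05 for all genes. With all mice of 8 weeks above all mice of 4 weeks there were 3 members, Klk1b5, Klk1b21 and Klk1b24 (3.79% of all genes), and 0 members were separated in the other direction (1.96%). These calls depended on single mice, since 0 members passed without mouse 4 or mouse 5 at 4 weeks or without mouse 3 at 8 weeks, and 2 without mouse 2 at 8 weeks. Over all genes 1345 were called with all mice and 14 without mouse 5 at 4 weeks. Klk1b16 alone lost its call without mouse 3 at 4 weeks or mouse 1 at 8 weeks, Klk1b21 alone lost it without mouse 5 at 8 weeks, and Klk1b24 passed in addition without mouse 1 at 16 weeks. None passed with the mean of the parotid markers Amy1, Bpifa2 and Dnase1 as a covariate, a choice made once the data had been seen, with a median log2 fold change of 0.99 in that fit. The same fit called 3 genes in all.

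At 12 against 8 weeks all 8 members had positive log2 fold changes, between 0.76 for Klk1 and 2.26 for Klk1b16, with a median of 1.22 against -0.05 for all genes. None passed the test, with the lowest adjusted p of 0.105 from limma for Klk1b16, and 1 gene in all was higher (0.0055%) and 0 lower (0%). The unadjusted p was under 0.05 for 7 members and 3424 genes. Klk1b16 was the 1 member whose 12-week mice were all above the 8-week mice (3.39% of all genes), with 0 members below (1.95%). Without mouse 4 at 8 weeks 3 members passed among 225 genes called in all, and without mouse 1 at 16 weeks 1 member passed.

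In the comparison of 16 against 12 weeks all 8 log2 fold changes were negative, between -0.81 for Klk1 and -1.67 for Klk1b16, with a median of -0.98 against -0.02 for all genes. None passed the test (lowest adjusted p = 0.153 from limma), while 0.187% of all genes were lower and 0.0055% higher. At an unadjusted p under 0.05 there were 6 members and 2578 genes. All 16-week mice were below all 12-week mice in 1 member, Klk1b16 (1.86% of all genes), and 0 members lay above (0.791%). Mouse 1 at 16 weeks, the highest of its age in 7 of 8 members, bore on this result, as 5 members were called lower when it was left out, with a median log2 fold change of -1.23. With array weights 6 members were called lower, and without mouse 5 at 8 weeks 1 was. Calls rose over all genes as well, from 35 genes to 1035 without mouse 1 at 16 weeks and to 1164 with array weights.

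The comparison of 12 against 4 weeks called few genes, 0.066% higher and 0.0275% lower, and 5 of the 12 genes higher were members (Klk1b1, Klk1b5, Klk1b16, Klk1b21 and Klk1b24). A further 2 of the 12 were of the same cluster, Klk1b7-ps and Egfbp2, which is counted outside the members because the array's annotation lists it by itself. The probe set of Egfbp2 may also bind transcripts of the members. The median log2 fold change of the members was 2.09, against 0.01 for all genes, and in 7 of 8 the mice of 12 weeks were all above those of 4 weeks (1.57% of all genes), with 0 below (0.78%). Klk1b1, Klk1b5, Klk1b16 and Klk1b21 passed in each of 20 fits that left out 1 mouse and in each of 11 other settings. By the size of the log2 fold change Klk1b16 ranked 2 and Klk1b5 ranked 6 among 18194 genes.

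At 16 against 4 weeks 4 of 8 members were higher (Klk1b1, Klk1b5, Klk1b16 and Klk1b21) and 0 lower, against 0.506% and 3.12% of all genes. Their median log2 fold change was 1.17, against 0.01 for all genes, and in these same 4 genes the mice of 16 weeks did not overlap those of 4 weeks (1.42% of all genes), with 0 members below (1.65%). The calls of Klk1b1 and Klk1b21 were lost without mouse 4 or 5 at 4 weeks and without mouse 2 or 5 at 16 weeks, with 2 members left in each case. Over all genes 660 were called with all mice and 81 without mouse 2 at 16 weeks. With the parotid covariate 1 member, Klk1b16, passed (log2 fold change 2.46, adjusted p = 0.0362), among 73 genes called in all. The comparisons share arrays of the same age and are not independent of each other.

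The log2 change of each of the other 7 members was set against that of Klk1 on the same arrays with 2-sided exact permutation tests over 252 labelings of 10 mice, which is 21 tests in all with unadjusted p, and the smallest p they can give is 0.00794. At 12 against 4 weeks, all 7 had larger log2 changes than Klk1, by 0.88 (Klk1b24, exact p = 0.00794) to 3.19 (Klk1b16, exact p = 0.00794) on the log2 scale, and after cyclic loess scaling of the arrays 6 of 7 did so at p under 0.05. At 8 against 4 weeks 5 of 7 passed and at 16 against 4 weeks 6 of 7, but after cyclic loess only 1 and 0 passed and some differences had the opposite sign, because the log2 fold change of Klk1 was then 1.22 and 1.72. Klk1b11 was closest to Klk1 at 8 against 4 weeks, with a difference of 0.23 (exact p = 0.437). As Klk1 lay near the top of the scale, where its changes may be compressed, these differences compare signals and do not show that transcript levels changed by different amounts.

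Within an age, the members moved together from mouse to mouse. Mouse 5 was the lowest of the 8-week mice in 8 of 8 members, mouse 2 the lowest of the 12-week mice in 8 of 8, and mouse 4 the lowest of the 16-week mice in 7 of 8. At 4 weeks no such order was seen, and 3 mice were each the lowest for at least 1 member. After centring on each age, pairs of members correlated with Pearson's r of 0.59 to 0.95 (median 0.83, 28 pairs over 20 arrays), with Klk1b11 and Klk1b27 the highest and Klk1 and Klk1b21 the lowest. These points share an array, and the paralogs are alike enough that probes may bind transcripts of more than 1 gene, so the correlations are descriptions only. This order was not particular to the members. Egf, Crisp3, Lpo, Bhlha15 and Tfcp2l1 were also lowest in mouse 5 at 8 weeks, mouse 2 at 12 weeks and mouse 4 at 16 weeks. Others, such as Smgc and Scgb1b27, were not lowest in mouse 5 at 8 weeks. The low mice also differed in other measures. Mouse 5 at 8 weeks and mouse 4 at 16 weeks had the narrowest spread of signal. Mouse 2 at 12 weeks had the narrowest spread of its age (1.60), above the median of 1.58 over all arrays. Its Amy1 signal was 11.4, against 4.18 to 5.36 in the other 12-week mice. Bpifa2 was 12.7 in mouse 2 and 12.9 in mouse 3 at 12 weeks, and Dnase1 was 10.1 and 5.89. Mouse 1 at 16 weeks, the highest of its age in 7 of 8 members, had an Amy1 signal of 9.37. The 3' minus 5' difference of Gapdh was lowest of its age in mouse 5 at 8 weeks (1.49) and mouse 4 at 16 weeks (1.79). It was not lowest in mouse 2 at 12 weeks (2.83). That of Actb was 3.79, 1.78 and 3.82 in these mice, the lowest of its age only at 16 weeks. Mouse 1 at 16 weeks had the highest of its age for both (2.91 and 4.21). The part of spread, of parotid tissue and of RNA quality in the differences between mice was not tested.

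**Figure D3:**
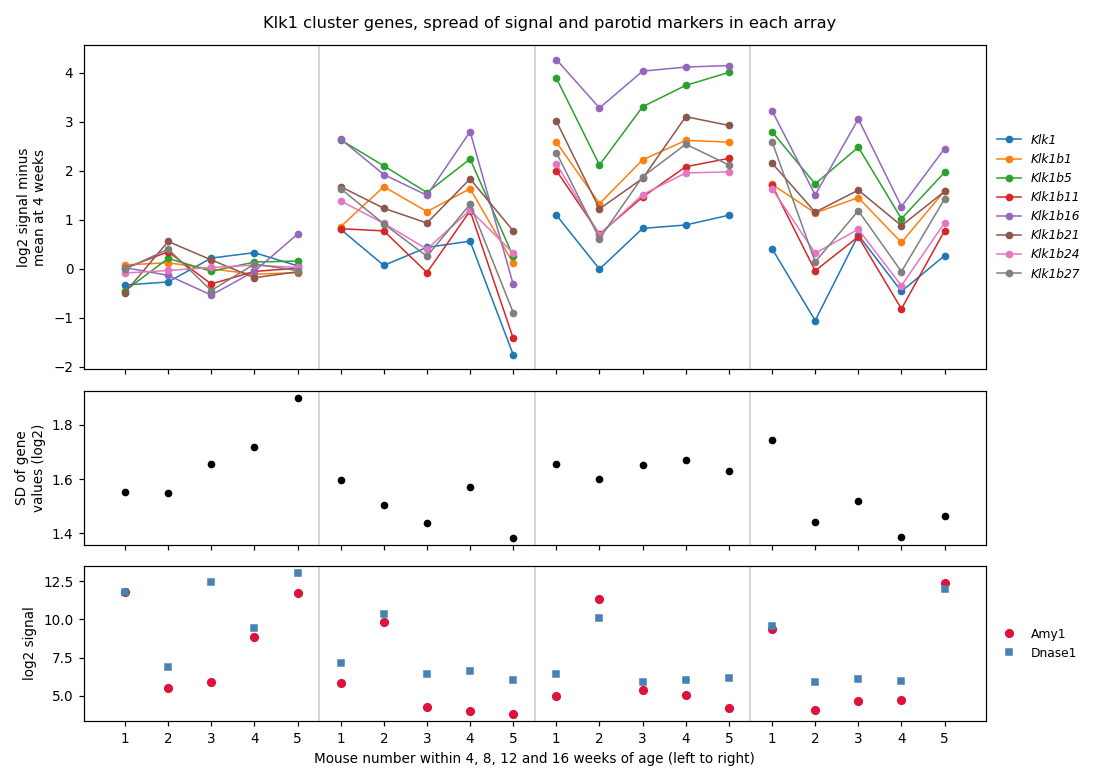
The 20 arrays in order of age and mouse number, with log2 signal of the 8 members minus their mean at 4 weeks (top), SD of gene values in the array (middle) and log2 signal of the parotid markers Amy1 and Dnase1 (bottom), and vertical lines between ages. The members dipped together in mouse 5 at 8 weeks, mouse 2 at 12 weeks and mouse 4 at 16 weeks.

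When the spread of signal was a covariate in the fit, the members' median log2 fold changes at 8 against 4, 12 against 4 and 16 against 4 weeks were 1.44, 2.20 and 1.69, and 3, 7 and 6 members were higher. Of all 18194 genes 7, 78 and 82 were higher in this fit. With the parotid covariate these medians were 0.99, 2.13 and 1.23, and 0, 4 and 1 members were higher, against 0, 5 and 14 of all genes. Klk1b1, Klk1b5, Klk1b16 and Klk1b21 were higher at 12 against 4 weeks in both fits.

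The probe sets of a gene did not always agree. Klk1 had 4 probe sets. Of these, 1415837_at gave means of 12.6, 12.6, 13.4 and 12.6 at 4, 8, 12 and 16 weeks, close to the 12.7, 12.7, 13.4 and 12.6 of the chosen 1448107_x_at, and 1455977_x_at gave 10.6, 10.9, 11.3 and 11.0. The dimmest, 1460050_x_at, was flat at 7.79, 7.86, 7.76 and 7.87. No probe set of Klk1 passed the test in any comparison. The suffix _x_at marks probe sets with probes that may bind other transcripts, which here applies to 3 of 4 probe sets of Klk1 and to the chosen one of Klk1b5, whereas the other chosen probe sets had the suffix _at. The suffix _x_at was also that of the probe sets annotated to Klk1b26 and Egfbp2, to Egfbp2 alone, and to Klk1b9 and Klk1b22. Their signals may thus include transcripts of the members.

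The 2 genes whose symbols were not given alone for any probe set were Klk1b26 and Klk1b22. The array's annotation gave both Klk1b26 and Egfbp2 for a probe set, although the reference annotation holds Egfbp2 as a synonym of Klk1b26, so that both symbols name 1 gene there. This probe set had log2 signals of 12.4, 10.7, 12.2, 12.3 and 12.4 at 12 weeks, against 8.65, 9.41, 8.58, 8.83 and 9.70 at 4 weeks. The log2 fold change was 2.98 (SE 0.50, adjusted p = 0.0112 from limma over all probe sets). The probe set annotated to Klk1b9 and Klk1b22 had 12.9, 12.3, 12.7, 12.8 and 12.9 at 12 weeks, against 10.6, 10.9, 10.7, 11.6 and 11.9 at 4 weeks. Its 12-week mice were all above the 4-week mice, but the change of 1.58 did not pass (SE 0.56, adjusted p = 0.266). Which of Klk1b9 and Klk1b22 gave this signal cannot be told apart.

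**Figure D4:**
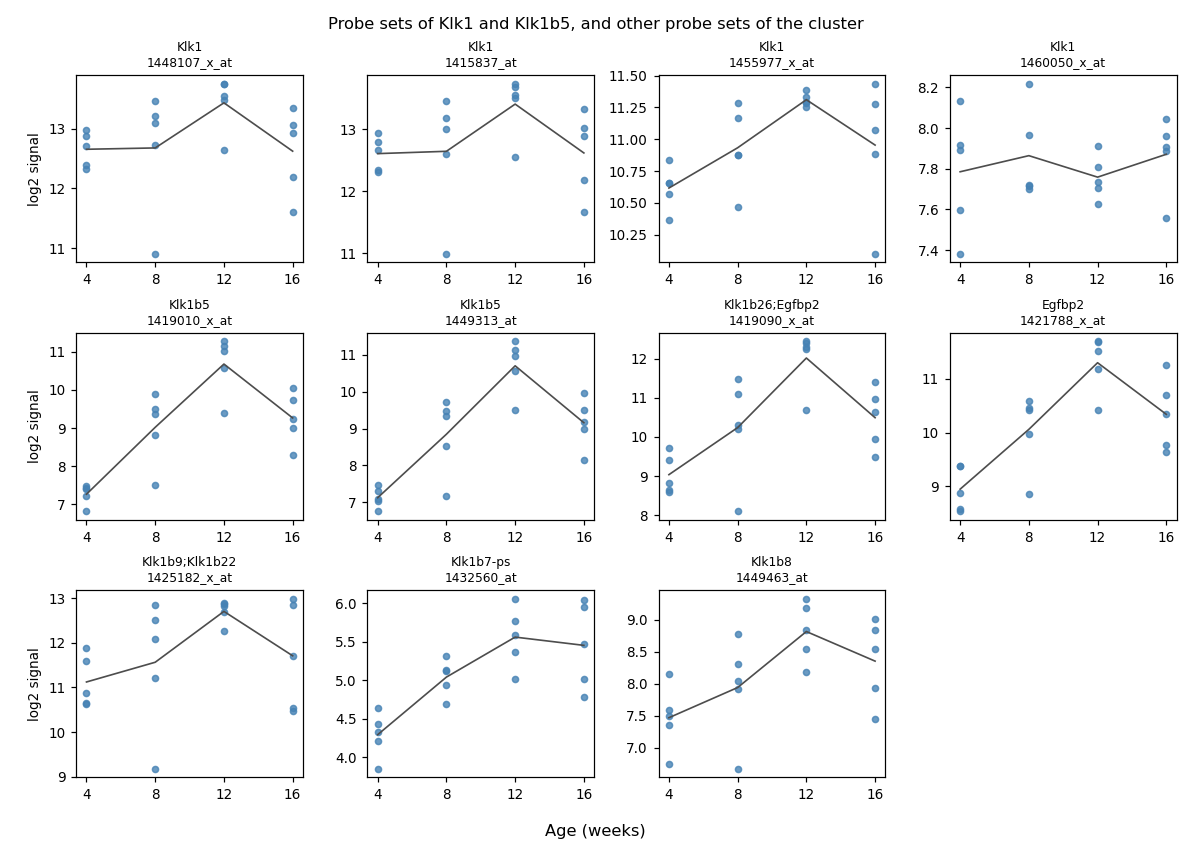
Log2 signal (vertical axis, own scale in each panel) by age in weeks for the 4 probe sets of Klk1, the 2 of Klk1b5 and 5 further probe sets of the cluster, where each point is a mouse and there is a line through the means of 5 mice. The mean was highest at 12 weeks in every panel except that of 1460050_x_at.

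Of 18186 genes outside the members, those most like the mean of the members' standardized values over 20 arrays were Egfbp2 (Pearson's r = 0.95), Klk1b8 (0.91), Crisp3 (0.82), Slit2 (0.81), Klk1b7-ps (0.80), Kif26a (0.80), Ifi207 (0.78) and Igkv8-30 (0.77). Of these, Egfbp2, Klk1b8 and Klk1b7-ps lie in the cluster itself, and the probe set of Egfbp2, with the suffix _x_at, may also bind transcripts of the members. The probe set annotated to Egfbp2 alone, and thus to Klk1b26 by the synonym in the reference, rose by 2.35 at 12 against 4 weeks (SE 0.34, adjusted p = 0.00350 from limma) and by 1.39 at 16 against 4 weeks (adjusted p = 0.0319). Klk1b8 had log2 signals of 9.18, 8.18, 8.55, 8.83 and 9.32 at 12 weeks, against 6.75, 8.15, 7.59, 7.36 and 7.50 at 4 weeks, and did not pass (log2 fold change 1.34, adjusted p = 0.228). The transcribed pseudogene Klk1b7-ps, at the far end of the cluster from Klk1, rose by 1.27 at 12 against 4 weeks (SE 0.23, adjusted p = 0.0403) and by 1.16 at 16 against 4 weeks (adjusted p = 0.0150). Crisp3, a cysteine-rich secretory protein of the salivary gland, followed the members mainly within ages (r = 0.91 after centring on age) and had a change of 1.07 at 12 against 4 weeks that did not pass (adjusted p = 0.539).

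Other products of the granular convoluted tubules did not pass the test. Of 15 listed, 7 were measured, among them Klk1b8 of the cluster, and 0 passed in any of the 5 comparisons, with a median log2 fold change of 0.24 at 12 against 4 weeks. Egf, the precursor of epidermal growth factor, had log2 signals of 9.47, 8.97, 9.91, 10.6 and 9.99 at 12 weeks, against 8.25, 8.21, 9.01, 9.19 and 9.60 at 4 weeks. Its ages overlapped, and the change of 0.94 did not pass (SE 0.41, adjusted p = 0.515 from limma). At 8 against 4 weeks the log2 fold change of Egf was -0.38 (adjusted p = 0.518 from limma). Those of the 8 members ranged from 0.02 for Klk1 to 1.76 for Klk1b5, with a median of 0.97.

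Among 12 kallikrein-related peptidases encoded elsewhere in the same chromosome region, 10 were measured and 0 passed in any comparison, with medians between -0.17 and 0.25. Their log2 signals were low, between 3.46 and 6.40, against array medians of 4.70 to 4.91, so that the count of 0 says little about them. Of the kallikrein-kinin pathway 9 of 11 genes were measured and 1 passed, at 8 against 4 weeks, where 3.26% of all genes were higher. This was Kng1, kininogen, the substrate of tissue kallikrein, with log2 signals of 6.03, 5.52, 6.51, 5.33 and 5.82 at 8 weeks, against 4.84, 5.10, 5.28, 5.05 and 5.03 at 4 weeks (log2 fold change 0.78, SE 0.17, adjusted p = 0.0246 from limma). All 8-week mice were above the 4-week mice. Its change at 12 against 4 weeks was 0.33 (adjusted p = 0.583). The level of Kng1 was near the array medians of 4.70 to 4.91.

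Of 15 genes of the androgen, thyroid hormone and glucocorticoid axis, 12 were measured, and the androgen receptor was not among them. Of these, 2 were higher at 8 against 4 weeks, where 3.26% of all genes were higher, and 0 passed in the other 4 comparisons. That comparison called 1345 genes in all, and 16 once signal spread entered the fit. Srd5a3, a member of the steroid reductase family that acts in dolichol synthesis, had a mean of 7.49 ± 0.31 at 8 weeks and 6.86 ± 0.29 at 4 weeks (SD, n = 5 mice each; log2 fold change 0.62, adjusted p = 0.0499 from limma). Dio2, which activates thyroid hormone, had 5.98 ± 0.17 at 8 weeks and 5.54 ± 0.16 at 4 weeks (log2 fold change 0.44, adjusted p = 0.0399 from limma). The median log2 fold change of this list was between -0.10 and -0.03 in the 5 comparisons.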

How the data were processed

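Log2 signals of 45101 probe sets on 20 arrays were deposited by the authors after RMA (background correction, quantile normalization and summarization), and no further normalization was made here. Arrays carry no read depth, and their number limits the precision. The platform annotation gave 1 symbol for 34958 probe sets (34754 of them found in the reference), several for 932 and none for 9211. Ages were compared over 18194 genes with limma 3.58.1 in R 4.3.3, with age as the factor over all 20 arrays and p-values adjusted by Benjamini and Hochberg within a comparison (threshold 0.05). The steps were tested on simulated data. Upstream sequences were aligned with Biopython 1.88. Members and gene lists were chosen with earlier results of these data known. All members are named, with listed genes that passed and the 8 genes of highest correlation; Klk1b26, Klk1b22, Egf, Amy1, Bpifa2, Dnase1 and Car6 were added after their values were seen. Alternatives were median centring, cyclic loess, the mean of probe sets, removal of the lowest 40% of genes, a fit to 2 ages, limma-trend with robust variances, array weights, a replicate block, spread of signal as a covariate and each mouse left out. A fit without 3 arrays and one with parotid markers as a covariate were chosen after seeing the data.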

Additional observations from a re-analysis of the deposited data

Results flagged for a closer look

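Within each age, the highest and the lowest of 5 mice were set against the nearest of the others for all 8 genes, and in 3 of 32 groups 1 mouse lay apart by Dixon's criterion of 0.71, where chance alone gives about 1 in 20. Klk1 had a log2 signal of 10.9 in mouse 5 at 8 weeks, against 12.7 in the next lowest mouse. At 12 weeks it had 12.6 in mouse 2, against 13.5 in the next lowest. Klk1b16 had 10.5 in mouse 2 at 12 weeks, against 11.2 in the next lowest. All 3 values lay on the low side. The 8 genes were measured in the same 5 mice at each age and correlated within an age. The 32 groups are thus not independent, and their count cannot be judged against the share given by chance.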

How the results depend on the processing

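The higher mean of Klk1b1, Klk1b5, Klk1b16 and Klk1b21 at 12 against 4 weeks passed under every setting tried. When 1 mouse was left out, the members called ranged from 0 to 5 at 8 against 4 weeks, 0 to 3 at 12 against 8, 0 to 5 at 16 against 12, 4 to 5 at 12 against 4 and 2 to 4 at 16 against 4 weeks. Genes called ranged from 14 to 2694, 1 to 225, 9 to 1035, 6 to 22 and 81 to 3003, and the members' median log2 fold change from 0.86 to 1.18, 0.97 to 1.51, -1.24 to -0.80, 1.96 to 2.37 and 0.93 to 1.41. The causes were not tested.

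At 8 against 4 weeks, where 1345 genes and 4 members were called, array weights gave 210 genes and 2 members, a replicate block 245 and 1, the spread of signal as covariate 16 genes, the 2 ages alone 2 genes and 0 members, a fit without the 3 arrays of outlying spread 8 and 2, and the parotid covariate 3 and 0. Median centring changed the split from 593 higher and 752 lower genes to 261 and 1053, and cyclic loess to 318 and 968. At 12 against 8 weeks 1 gene was called, against 4 genes and 1 member with cyclic loess, 0 genes with the mean of probe sets, 2 with trend and robust variances, 27 and 1 with array weights, 2 with the spread covariate, and 274 and 1 with the 2 ages alone. At 16 against 12 weeks 35 genes were called, against 18 with the mean of probe sets, 23 with trend and robust variances, 1164 and 6 members with array weights, 15 with the replicate block, 111 with the 2 ages alone and 18 without the 3 arrays.

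At 12 against 4 weeks 17 genes were called, against 8 with median centring, 8 without the lowest 40% of genes, 77 with array weights, 6 with the replicate block, 110 with the spread covariate, 7 without the 3 arrays and 5 with the parotid covariate. The split of 12 higher and 5 lower was 5 and 3 with median centring and 10 and 9 with cyclic loess. At 16 against 4 weeks 660 genes were called, 92 higher and 568 lower, against 67 and 818 with median centring and 221 and 567 with cyclic loess, which called 8 members. Array weights gave 1389 genes, the replicate block 262, the spread covariate 148, the 2 ages alone 75, the fit without the 3 arrays 36, and the parotid covariate 73 genes and 1 member.

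The sign turned only for Klk1. At 8 against 4 weeks its log2 fold change was -0.068 with median centring and -0.17 to 0.47 with 1 mouse left out. With cyclic loess it was -0.29 at 12 against 8 weeks, 0.80 at 16 against 12 weeks and 1.72 at 16 against 4 weeks, where it passed (adjusted p = 0.0270 from limma). At 16 against 4 weeks it was also 0.10 with the mean of probe sets, 0.016 with array weights, 0.51 with the spread covariate, 0.090 without the 3 arrays, 0.023 with the parotid covariate and -0.21 to 0.23 with 1 mouse left out. Mice of the same replicate number were not paired by this check, as the 30 correlations of their deviations ranged from -0.57 to 0.58, 8 were over 0.1, and 4 of 20 arrays correlated best with their own number. With the number as a block 1, 4 and 3 members were called at 8, 12 and 16 against 4 weeks.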
